A study of Triticum turgidum with 12 samples.

Results

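The pale-green mutant of durum wheat was compared with its wild-type across both water treatments, as the mean of the mutant's control and stress group means minus the mean of the wild-type's control and stress group means. All 12 arrays of the series entered, 6 of each genotype. The wild-type (WT) is the cultivar Borgia, and the mutant (M) is a line that was obtained from Borgia by chemical mutagenesis with sodium azide, so that both share the Borgia background and M is a single line whose causal gene is not given in the sources used here. Flag leaves were sampled at anthesis in a glasshouse, from soil kept at field capacity throughout (control) or from pots in which watering was reduced from booting onwards (water stress), and each of the 3 replicates in each of the 4 groups (WT control, WT water stress, M control and M water stress) pooled leaves of several plants on 1 Affymetrix Wheat Genome Array. The plants were grown in a split-plot layout, with the water treatments as main plots and the genotypes as subplots. The measure is the MAS5 signal of a probe set (a group of short probes for 1 transcript) on the log2 scale, where a difference of 1 is 2-fold.

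A pale-green leaf holds less chlorophyll than a normal leaf, and the light-harvesting proteins that bind chlorophyll are encoded by nuclear genes that are transcribed in mesophyll cells. Abscisic acid (ABA) is the hormone that accumulates as a leaf dries, and it switches on protective proteins such as dehydrins and other late embryogenesis abundant (LEA) proteins. Leaves also carry a set of secreted defense proteins, including chitinases, beta-glucanases, peroxidases and germin-like proteins, which are raised by pathogens and by several other stresses. The question that the average addresses is which transcripts differ between M and WT in the same direction with full and with reduced watering.

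Of 24590 probe sets that passed the filter on low values (all 3 replicates of some group above the 60th percentile of their arrays), 30 (0.122%) differed between the genotypes at an adjusted p under 0.05 in limma and by at least 2-fold, 14 (0.0569%) higher and 16 (0.0651%) lower in M. The lower ones included LEA1 and the homeobox gene ATHB-6, which are tied to the ABA response, an endonuclease and 2 probe sets of a xyloglucosyl transferase of the cell wall. Among the higher ones were the defense genes GLP2b, Chitinase 3 and Blufensin1. In a whole leaf fewer cells of a type and less RNA per cell cannot be told apart. All 30 had the same sign under control and under water stress, which the averaging itself favours, against 49.5% of all probe sets. After quantile normalization between arrays the split of the called probe sets was 7 higher and 17 lower, of which 23 were among the 30. The median intensity of an array was 62.7 to 66.5 on the M stress arrays and 50.5 to 58.6 on the WT stress arrays, which did not overlap, and 52.8 to 58.8 on the M control and 52.4 to 56.7 on the WT control arrays, which did (exact permutation of the genotypes within each treatment over 400 splits, two-sided p = 0.025). This p was the smallest among the array measures permuted in this way, and for the 60th percentile of intensity it was 0.085. The part of the median intensity in the split was not tested.

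The mutant difference was larger under water stress for most of the lower probe sets and larger under control for most of the higher ones. Of the 16 lower probe sets, 4 had the larger difference under control, and the group's median difference was -1.06 under control and -1.55 under water stress. For 10 of the 14 higher probe sets the difference was larger under control, with medians of 1.66 and 1.18. Between the control groups no probe set passed the test, with 222 (0.903%) at an unadjusted p under 0.05 and 2-fold. Between the stress groups 174 (0.708%) passed, 62 higher and 112 lower in M. The methods' t-test, adjusted, gave 0 between the control groups and also 0 between the stress groups. Fitted alone, the control arrays gave 53 and the stress arrays 5, so that the order of the counts depended on the fit. The contrast is a difference in counts, and the genotype by water stress interaction, which tests the difference itself, called 39 probe sets (0.159%), of which 1 was among the 30. That 1, the unnamed Ta_21659_1_A1_at, read 8.44, 8.94 and 8.64 on the WT control arrays, 8.54, 8.94 and 8.21 on the M control arrays, 11.13, 11.33 and 11.73 on the WT stress arrays and 9.58, 9.38 and 9.06 on the M stress arrays. Only under water stress were the genotypes apart, with a difference of -2.06 ± 0.22 against -0.11 ± 0.22 under control (interaction -1.95 ± 0.31, adjusted p = 0.0342), and its control difference was within the spread between arrays.

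These counts moved with single arrays too. The count under control was 11 without M water stress replicate 3, which takes part only through the shared spread and the filter on low values. It was 53 when the control arrays were fitted alone. Under water stress the count was 75 without WT water stress replicate 3, 291 without WT water stress replicate 2, 286 without M water stress replicate 3 and 5 when the stress arrays were fitted alone. The interaction called no probe set in 7 of the 12 fits without 1 array (without M control replicates 1 or 3, any WT control replicate, M water stress replicate 2 or WT water stress replicate 3), 25 without WT water stress replicate 1, and 141 and 106 without M water stress replicate 3 and WT water stress replicate 2.

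**Figure D1:**
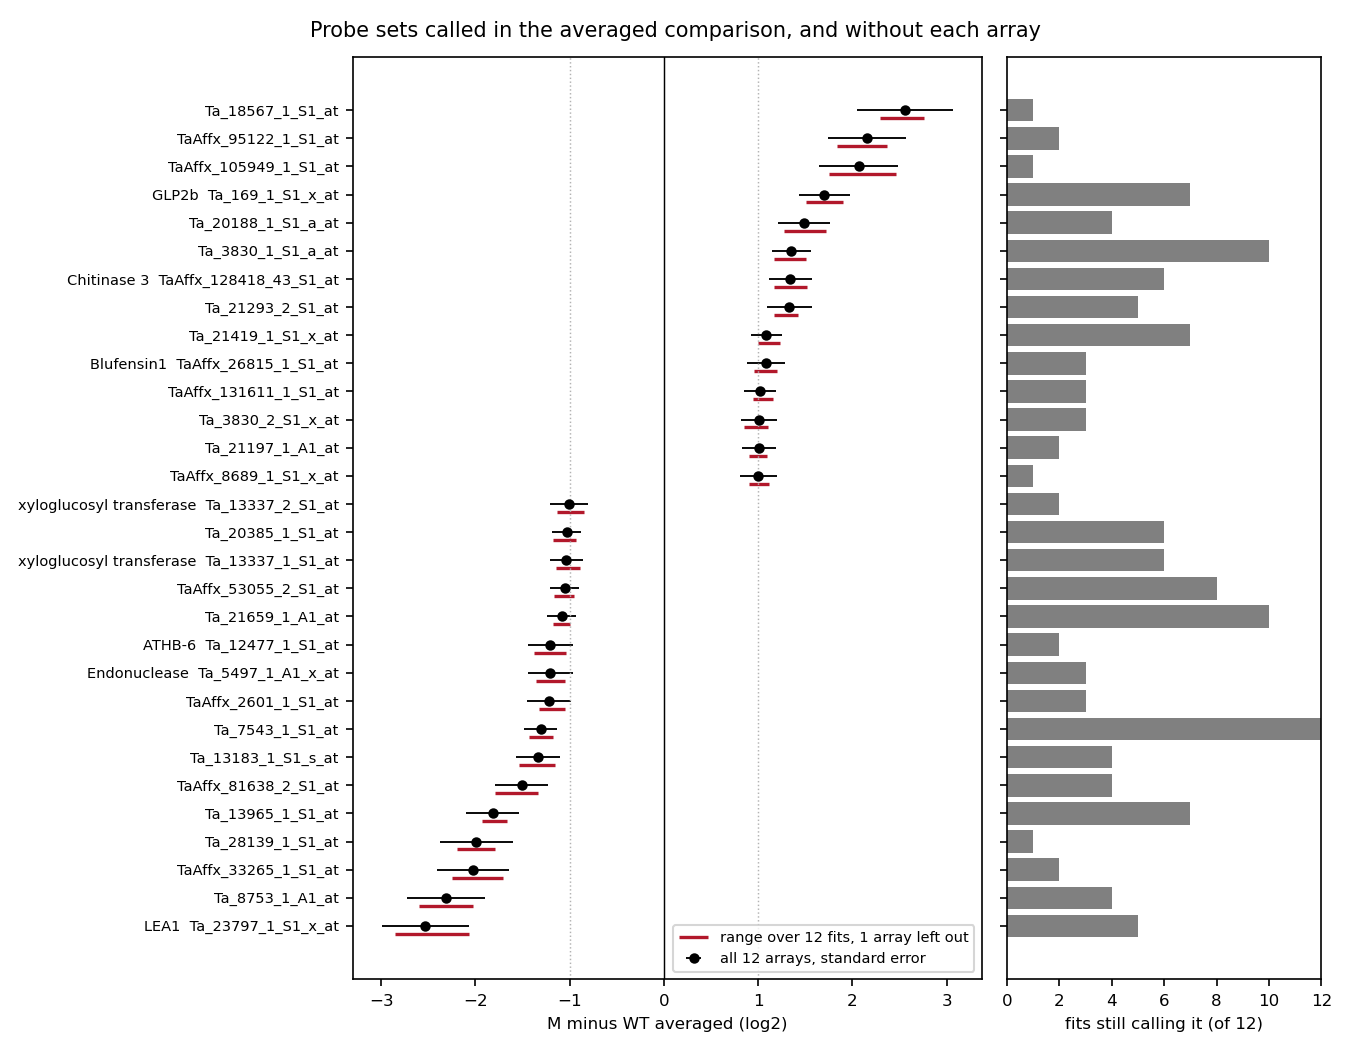
Averaged difference of M minus WT (log2, horizontal axis) for the 30 called probe sets, with the standard error over all 12 arrays (black) and the range over 12 fits that each left out 1 array (red). The bars on the right count the fits, of 12, that still called the probe set, from 1 for Ta_18567_1_S1_at to 12 for Ta_7543_1_S1_at.

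How many probe sets passed rested on single arrays. Leaving out 1 array at a time gave 2 to 46 called probe sets. The sign of the 30 could hardly turn in these fits, since they were chosen for a large averaged difference on the same arrays. Without M control replicate 3, only 1 of the 30 was still called, and without M control replicate 2 it was 3. Without WT control replicates 1, 2 or 3 the number was 5, 4 and 5. Leaving out WT water stress replicates 1, 2 and 3 left 8, 23 and 9. For M control replicate 1 it was 15, and for M water stress replicates 1, 2 and 3 it was 21, 14 and 26. The differences themselves ran from -2.86 to -2.06 for LEA1, 1.51 to 1.90 for GLP2b and -1.15 to -0.90 for the xyloglucosyl transferase Ta_13337_1_S1_at, as the plot of the averaged differences shows.

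M water stress replicate 3 stood apart from its group, with a correlation of 0.947 and 0.958 with the other 2 replicates, against 0.974 between those. On this array and on WT water stress replicate 2, the 3′ to 5′ signal ratio of glucose-6-phosphate dehydrogenase, a measure of RNA integrity, was 15.2 and 15.7, compared with 4.46 to 10.6 on the others. The 6 arrays of each genotype spanned 4.46 to 15.2 in M and 5.53 to 15.7 in WT. Other control genes did not set these arrays apart by a high ratio. For actin it was 0.874 on M water stress replicate 3 and 2.32 on WT water stress replicate 2. Its highest values were 6.33 on WT control replicate 2 and 6.03 on M control replicate 2. For glyceraldehyde-3-phosphate dehydrogenase it was 0.271 on M water stress replicate 3 and 0.03 on WT water stress replicate 2. Without M water stress replicate 3 the average called 37 probe sets, and without both of these arrays it called 76, of which 24 were among the 30.

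LEA1 (Ta_23797_1_S1_x_at), a small hydrophilic protein of the LEA family that is made in drying tissue, showed the largest difference of any called probe set with a name. Its log2 intensity was 7.82, 7.3 and 7.95 on the WT control arrays, 5.06, 4.54 and 3.8 on the M control arrays, 7.28, 7.09 and 7.38 on the WT stress arrays and 6.0, 6.7 and 3.53 on the M stress arrays. All 6 M arrays were below all 6 WT arrays, and on 5 arrays the value was below the median of the array. LEA1 passed the filter on low values only through the WT groups, where it was high, which favours a lower M. The averaged difference was -2.53 ± 0.46 (SE), a 5.79-fold lower signal (adjusted p = 0.0339), made of -3.23 under control and -1.84 under water stress. Of the 12 fits without 1 array, 5 called it, with differences of -2.86 to -2.06.

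ATHB-6 (Ta_12477_1_S1_at) is a homeodomain-leucine zipper transcription factor that acts as a negative regulator of ABA responses in Arabidopsis. It read 7.76, 7.31 and 7.62 on the WT control arrays, 6.29, 5.76 and 6.42 on the M control arrays, 8.46, 8.66 and 7.92 on the WT stress arrays and 8.03, 7.31 and 6.68 on the M stress arrays. The groups were apart under control, and under water stress the highest M array lay above the lowest WT array. Its averaged difference was -1.20 ± 0.24 (adjusted p = 0.0424), and 2 of the 12 fits without 1 array called it.

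For the endonuclease (Ta_5497_1_A1_x_at), a nucleic acid-cleaving enzyme, values were 8.1, 8.91 and 8.99 on the WT control arrays, 7.98, 7.42 and 7.6 on the M control arrays, 10.76, 10.05 and 11.19 on the WT stress arrays and 9.8, 9.32 and 8.65 on the M stress arrays. M was below WT under each treatment without overlap, and the stress arrays of each genotype were above all of its control arrays. The averaged difference was -1.21 ± 0.24 (adjusted p = 0.0434; called in 3 of the 12 fits without 1 array). A second probe set of the same name stem, Ta_5497_1_A1_at, had -1.57 ± 0.37 and did not pass (adjusted p = 0.0807).

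Xyloglucosyl transferases cut and rejoin the xyloglucan chains that tie cellulose together in the cell wall. Ta_13337_1_S1_at read 11.55, 12.4 and 12.07 on the WT control arrays, 11.8, 10.96 and 11.83 on the M control arrays, 13.56, 13.46 and 13.14 on the WT stress arrays and 12.06, 11.59 and 11.71 on the M stress arrays. The genotypes overlapped under control and were apart under water stress, where WT was the higher. Its difference was -0.48 under control and -1.60 under water stress, and the average of -1.04 ± 0.17 was called (adjusted p = 0.0253; 6 of 12 fits without 1 array). Ta_13337_2_S1_at, with the same stem, averaged -1.01 ± 0.20 (adjusted p = 0.0473; 2 of 12 fits), and Ta_13337_2_S1_x_at averaged -0.83 ± 0.25 and did not pass (adjusted p = 0.18).

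**Figure D2:**
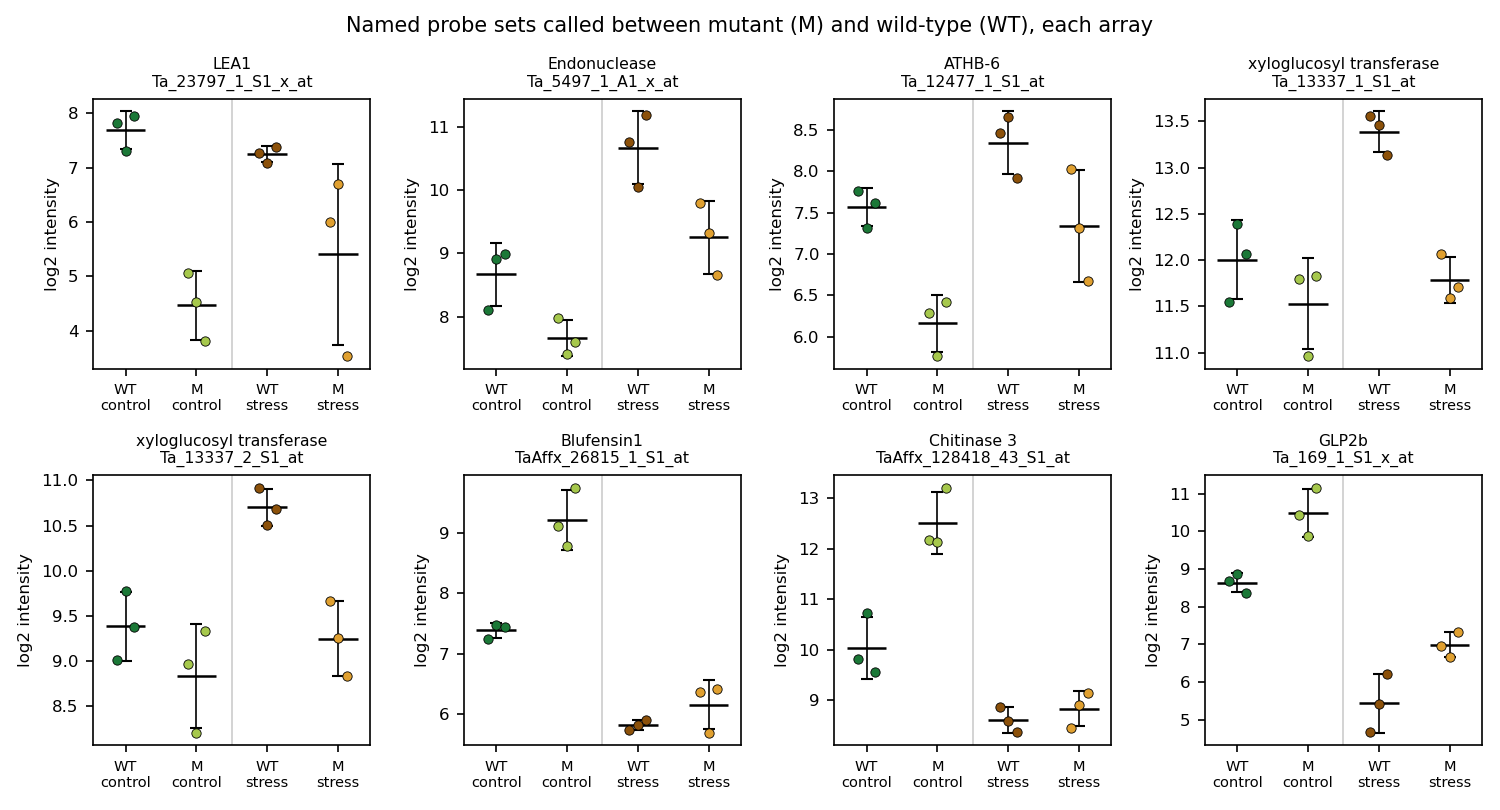
Log2 intensity of the 8 named probe sets called in the averaged comparison, with 1 point for each array, the group mean as a line and the SD as a bar (n = 3 in each group). LEA1, ATHB-6, the endonuclease and both xyloglucosyl transferase probe sets have lower group means in M under both treatments, and GLP2b, Chitinase 3 and Blufensin1 have higher ones.

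The study designed quantitative PCR primers for the 3 named defense genes that were higher in M, and they are shown here as the study's own sequences for these transcripts. Their match to the probe sets was not checked. They are shown 5′ to 3′ with the last 5 bases, at the end that the polymerase extends, in capitals.
Chitinase 3 forward: gctactgtgacctcctcggTGTCA
Chitinase 3 reverse: ggtctatcgccacgccattGTTAC
Blufensin 1 forward: ccgaggatggcaaagaacAACTC
Blufensin 1 reverse: ggaaatggttcatctcgtgcTTATG
GLP2b forward: ggtcagacccaccaatatcaGATGA
GLP2b reverse: aactcaaccgtgtccttcacTTGTG

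GLP2b (Ta_169_1_S1_x_at), a germin-like protein of the cell wall, had the largest difference of the named probe sets that were higher in M. Its log2 intensity was 8.68, 8.87 and 8.37 on the WT control arrays, 10.43, 9.88 and 11.16 on the M control arrays, 4.67, 5.42 and 6.22 on the WT stress arrays and 6.97, 6.67 and 7.34 on the M stress arrays. M was above WT under each treatment without overlap, while both genotypes read lower on every stress array than on any control array. The difference was 1.85 under control and 1.56 under water stress, with an average of 1.70 ± 0.27 or 3.26-fold (adjusted p = 0.0202). It was called in 7 of the 12 fits without 1 array, and on 2 of the WT stress arrays it was below the median of the array.

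Chitinase 3 (TaAffx_128418_43_S1_at) belongs to the enzymes that degrade chitin, a polymer of fungal walls. It read 9.81, 10.73 and 9.56 on the WT control arrays, 12.16, 12.13 and 13.21 on the M control arrays, 8.88, 8.59 and 8.36 on the WT stress arrays and 8.45, 8.91 and 9.13 on the M stress arrays. The genotypes were apart under control and overlapped under water stress, where both were low. The difference was 2.47 ± 0.33 under control and 0.22 ± 0.33 under water stress, so that the averaged call (1.34 ± 0.23, adjusted p = 0.027; 6 of 12 fits without 1 array) rested mainly on the control arrays. The interaction did not pass (adjusted p = 0.0617).

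Blufensin1 (TaAffx_26815_1_S1_at) is a small peptide that is induced by powdery mildew in barley and lowers basal resistance there. Its values were 7.24, 7.47 and 7.44 on the WT control arrays, 9.12, 8.78 and 9.76 on the M control arrays, 5.73, 5.81 and 5.9 on the WT stress arrays and 6.35, 5.68 and 6.41 on the M stress arrays. As for Chitinase 3, the genotypes were apart under control only. The difference was 1.84 under control and 0.33 under water stress, the average 1.09 ± 0.20 (adjusted p = 0.036; 3 of 12 fits without 1 array) and the interaction did not pass (adjusted p = 0.149).

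The remaining 22 called probe sets have no gene name in the study's tables or in the platform annotation used here. The largest that were lower in M were Ta_8753_1_A1_at and TaAffx_33265_1_S1_at. Ta_8753_1_A1_at read 7.14, 7.04 and 7.22 on the WT control arrays, 5.9, 4.42 and 4.51 on the M control arrays, 8.19, 7.04 and 8.49 on the WT stress arrays and 6.63, 5.46 and 4.31 on the M stress arrays, with all M arrays below all WT arrays and an average of -2.31 ± 0.41 (adjusted p = 0.0315). TaAffx_33265_1_S1_at read 5.08, 5.64 and 5.68 on the WT control arrays, 2.52, 2.8 and 1.76 on the M control arrays, 8.29, 8.64 and 8.15 on the WT stress arrays and 8.32, 7.79 and 6.13 on the M stress arrays. Here every control array was below the median of its array and the genotypes overlapped under water stress, so that the average of -2.03 ± 0.38 (adjusted p = 0.0378) included a control difference between dim values. These were called in 4 and 2 of the 12 fits without 1 array. Both passed the filter on low values only through WT, Ta_8753_1_A1_at in control and stress and TaAffx_33265_1_S1_at in stress, which favours a lower M.

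The largest that were higher in M were Ta_18567_1_S1_at and TaAffx_95122_1_S1_at. Ta_18567_1_S1_at read 6.05, 6.07 and 4.92 on the WT control arrays, 7.0, 6.8 and 7.21 on the M control arrays, 1.5, 2.04 and 0.16 on the WT stress arrays and 4.97, 4.44 and 5.7 on the M stress arrays, M above WT under each treatment without overlap and an average of 2.56 ± 0.51 (adjusted p = 0.0434). TaAffx_95122_1_S1_at read 5.47, 5.66 and 5.79 on the WT control arrays, 6.78, 7.51 and 8.05 on the M control arrays, 3.2, 3.88 and 2.99 on the WT stress arrays and 7.13, 5.44 and 5.02 on the M stress arrays, again without overlap within a treatment and with an average of 2.16 ± 0.41 (adjusted p = 0.039). Both were dim: they were below the median of the array on 7 and 8 of the 12 arrays, and were called in 1 and 2 of the 12 fits without 1 array. Both passed the filter on low values only through the M control group, where they read highest, which favours a higher M.

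Some unnamed probe sets kept their call more often than the named ones, and they were singled out here after their values were seen. Ta_7543_1_S1_at, which was lower in M, was called in all 12 fits without 1 array. It read 11.04, 12.09 and 11.56 on the WT control arrays, 10.16, 10.82 and 10.79 on the M control arrays, 11.67, 11.13 and 11.58 on the WT stress arrays and 10.02, 9.63 and 9.83 on the M stress arrays. All 6 M arrays were below all 6 WT arrays, and the average was -1.31 ± 0.18 (adjusted p = 0.0162; -1.44 to -1.17 in the fits without 1 array). Ta_3830_1_S1_a_at, which was higher in M, was called in 10 of the 12 fits, the losses being without M control replicates 2 and 3. It read 9.64, 8.79 and 10.17 on the WT control arrays, 11.002, 11.34 and 11.05 on the M control arrays, 9.84, 10.44 and 10.11 on the WT stress arrays and 11.65, 11.1 and 10.96 on the M stress arrays, with all M arrays above all WT arrays and an average of 1.35 ± 0.21 (adjusted p = 0.0175). The other probe sets of this stem, Ta_3830_2_S1_x_at and Ta_3830_3_S1_x_at, averaged 1.01 ± 0.19 (called, adjusted p = 0.0374) and 0.89 ± 0.20 (adjusted p = 0.0751), and probe sets of 1 stem can share probes or transcripts and are not separate genes here.

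Complete separation of the genotypes was rare. In 6 of the 30 called probe sets, 5 lower and 1 higher in M, the 6 M arrays did not overlap with the 6 WT arrays, compared with 100 (0.407%) of all probe sets. Separation within each treatment and in the same direction held for 16 of the 30, 8 lower and 8 higher, compared with 418 (1.7%) of all, and separation in opposite directions held for 336 (1.37%) of all. The 30 were chosen for a large averaged difference on the same arrays, which favours separation. Nothing is read from the counts of separated probe sets among the 30. No probe set was above the 60th percentile on all 6 arrays of one genotype and below the median on all 6 of the other, so that no transcript was switched on or off by this measure (0%). Of the 30, 13 were below the median of the array on at least 1 array. Some of the 30 passed the filter on low values only through groups of the genotype in which they were higher, which favours the sign reported. Lower in M were LEA1, Ta_8753_1_A1_at, TaAffx_33265_1_S1_at, Ta_28139_1_S1_at and Ta_13965_1_S1_at. Higher in M were Ta_18567_1_S1_at, TaAffx_95122_1_S1_at, TaAffx_105949_1_S1_at and TaAffx_8689_1_S1_x_at. They included the largest difference in each direction.

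Some of the called probe sets also differed between the water treatments, as the average over both genotypes shows. Of the 16 that were lower in M, 6 were called higher and 1 lower under water stress in that average, compared with 735 (2.99%) and 1249 (5.08%) of all probe sets. Of the 14 that were higher in M, none was called higher and 7 were called lower under water stress. Both comparisons use the same 12 arrays. In 11 of the 30 the water treatment took a larger share of the variance among the arrays than the genotype did, GLP2b, Chitinase 3 and Blufensin1 among them.

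Across all 24590 probe sets the control difference and the stress difference, which share no array, had little relation. Pearson's r was 0.0716 and Spearman's rho 0.0134 across probe sets, which are not independent replicates, and 49.5% had the same sign. The share with the same sign rose with size, to 57.9% of 689 probe sets with a difference of at least 0.5 under both treatments, to 74.4% of 86 with at least 1, and to all 16 with at least 1.5. The median size of the difference was 0.12 under control and 0.195 under water stress, and the median SD between replicates was 0.154 to 0.235 in the 4 groups, so that most differences were within the spread between arrays. The genotype took a median of 4.07% of the variance of a probe set among the 12 arrays, and the water treatment 29.2%.

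**Figure D3:**
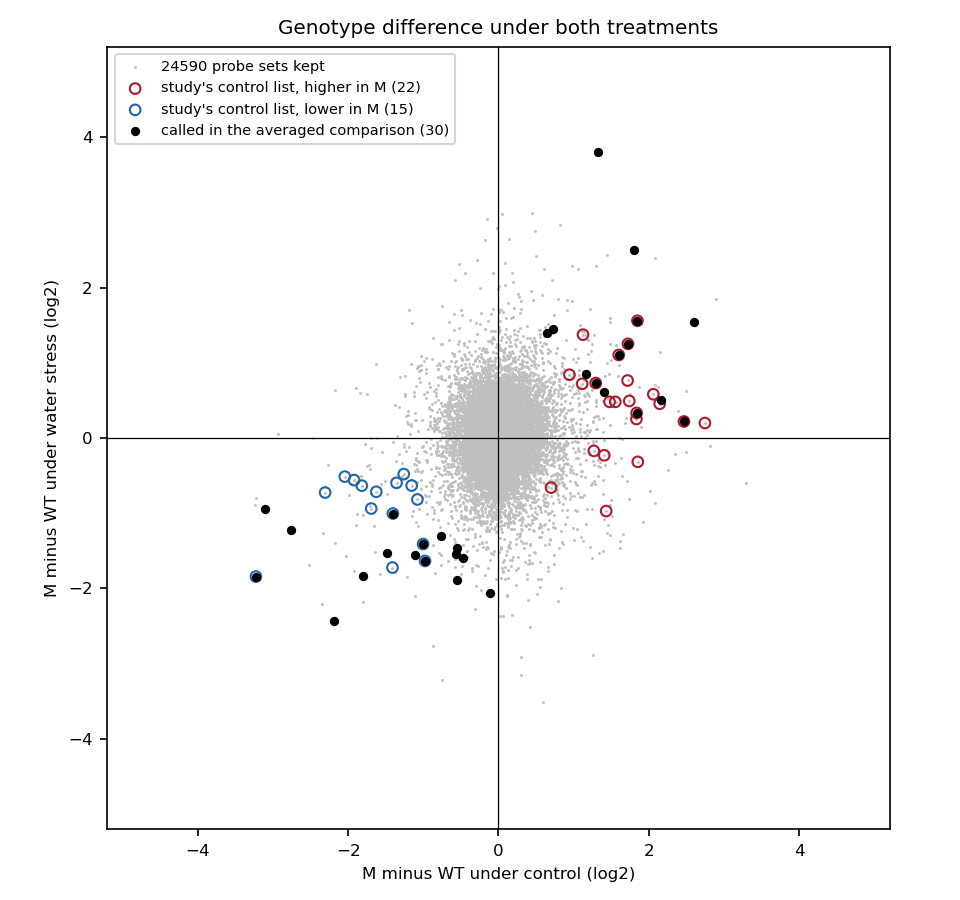
Difference of M minus WT (log2) under control (horizontal axis) and under water stress (vertical axis) for 24590 probe sets (grey), the 30 called in the averaged comparison (black) and the study's lists of probe sets higher (red) or lower (blue) in M under control. The 30 lie above 0 on both axes or below 0 on both, and the grey cloud surrounds the origin on all sides.

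The study had listed probe sets that differ between the genotypes under control conditions, so that their control difference was used in choosing them. The stress arrays were not part of that comparison, and give each listed probe set a second, separate difference. Of 22 listed as higher in M and kept here, 17 were above 0 under water stress, compared with 52% of all probe sets, and their median difference was 1.66 under control and 0.48 under water stress. All 15 listed as lower were below 0 under water stress, compared with 48% of all, with medians of -1.41 and -0.72. Some probe sets in each list share a gene or a name stem, so that these are counts of probe sets and not of separate genes. The share with the same sign was 58.5% among all 135 probe sets that were higher in M under control by 2-fold at an unadjusted p under 0.05, and 70.1% among the 87 that were lower. Under water stress 1 of the 22 was called higher and 2 of the 15 lower, compared with 62 (0.252%) and 112 (0.455%) of all probe sets.

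Averaged over both treatments, 6 of the 22 were called higher in M (GLP2b, Chitinase 3, Blufensin1 and the unnamed Ta_3830_1_S1_a_at, Ta_3830_2_S1_x_at and Ta_20188_1_S1_a_at) and 4 of the 15 lower (LEA1, ATHB-6, the endonuclease and the unnamed Ta_7543_1_S1_at), compared with 0.0569% and 0.0651% of all probe sets. The average contains the control difference by which the lists were chosen, so that nothing is read from these counts. Among the degrading enzymes of fungal walls, Beta-1,3-glucanase (Ta_28_1_S1_at) averaged 1.47 ± 0.55 (adjusted p = 0.291), Chitinase II (Ta_2278_3_S1_x_at) 1.12 ± 0.29 (0.119) and Beta-glucanase (TaAffx_119315_2_S1_x_at) 0.98 ± 0.40 (0.347). None of them passed, and the difference was larger under control (2.75, 1.74 and 1.48) than under water stress (0.20, 0.49 and 0.48). Glucan endo-1,3-beta-glucosidase GII had 2.06 and 0.58 on TaAffx_24475_1_S1_at and 1.85 and -0.32 on TaAffx_24475_1_S1_x_at, so that its probe sets disagreed in sign under water stress.

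Peroxidases use hydrogen peroxide to cross-link wall phenolics. Peroxidase 10 averaged 1.04 ± 0.27 on Ta_16980_1_S1_at and 1.02 ± 0.31 on Ta_30028_1_S1_s_at (adjusted p = 0.119 and 0.179), with smaller differences under water stress (0.25 and 0.48) than under control (1.83 and 1.55). The proline-rich protein Ta_16599_1_S1_x_at had like differences of 1.12 and 1.37 and an average of 1.25 ± 0.26 (adjusted p = 0.057). The pathogenesis-related protein Ta_15159_1_S1_at averaged 1.24 ± 0.69 (0.528) and the naringenin dioxygenase TaAffx_6092_1_S1_at, an enzyme of flavonoid synthesis, 1.30 ± 0.72 (0.528), both with large errors. The uncharacterized protein Sb01g018690 (Ta_3647_1_S1_at) averaged 0.92 ± 0.26 (0.143).

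For 3 further named genes of the list the sign was opposite under water stress. WRKY45-like (Ta_8614_2_S1_x_at), a transcription factor of defense responses, had 0.70 ± 0.34 under control and -0.66 ± 0.34 under water stress. Agmatine coumaroyl transferase-1 (Ta_8228_1_S1_at), which makes antifungal phenolamides in barley, had 1.27 ± 0.35 and -0.17 ± 0.35. For the uncharacterized protein Sb05g022350 (TaAffx_98744_1_S1_at) they were 1.43 ± 0.78 and -0.97 ± 0.78. In none of these did the interaction pass (adjusted p = 0.288, 0.277 and 0.425).

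**Figure D4:**
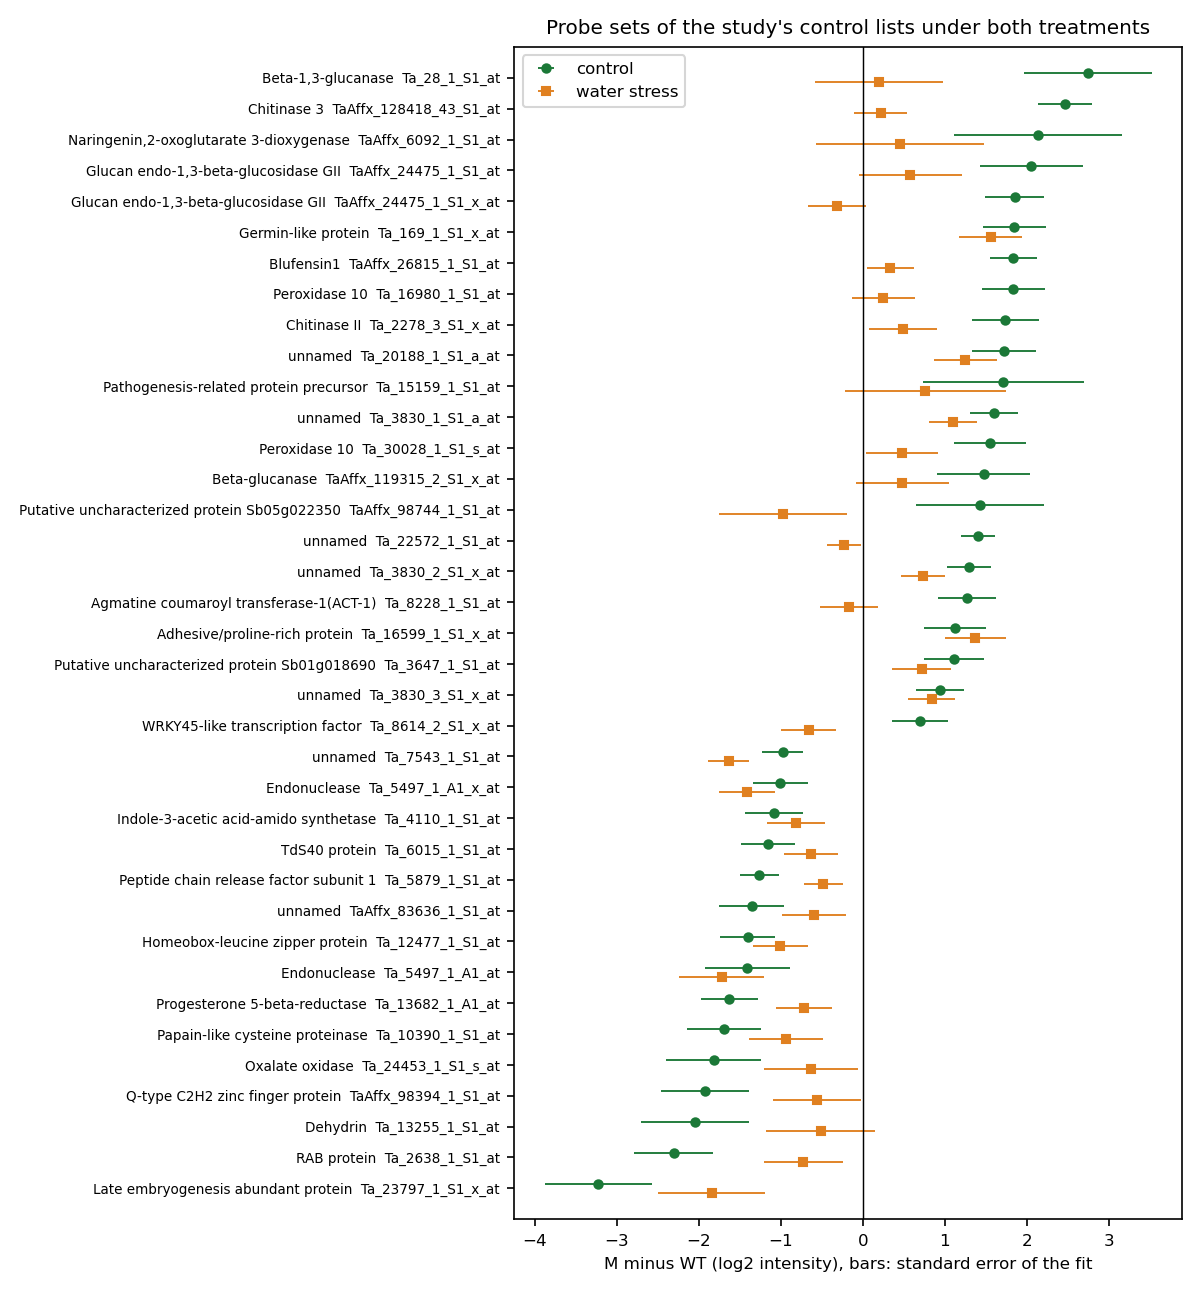
Difference of M minus WT (log2, horizontal axis, with the standard error of the fit) under control (green circles) and under water stress (orange squares) for the 37 probe sets of the study's control lists, in the order of the control difference. Of the 22 above 0 under control, 17 are above 0 under water stress, and all 15 below 0 under control are below 0 under water stress.

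Among the listed genes that were lower in M, 2 dehydrins, a proteinase and TdS40 were below 0 under water stress with smaller values than under control. The RAB protein (Ta_2638_1_S1_at), a dehydrin, averaged -1.51 ± 0.34 (adjusted p = 0.0721), from -2.31 under control and -0.72 under water stress, and the dehydrin WZY1-1 (Ta_13255_1_S1_at) -1.28 ± 0.47 (0.274), from -2.04 and -0.51. The papain-like cysteine proteinase PAP-14 (Ta_10390_1_S1_at), a protein-degrading enzyme, averaged -1.31 ± 0.32 (0.0906) and the TdS40 protein (Ta_6015_1_S1_at) -0.89 ± 0.23 (0.12). None of these passed the adjusted p.

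Progesterone 5-beta-reductase (Ta_13682_1_A1_at) averaged -1.17 ± 0.24 and lay just outside the threshold (adjusted p = 0.0543). The zinc finger protein ZFP23 (TaAffx_98394_1_S1_at) averaged -1.24 ± 0.38 (0.184), the oxalate oxidase germin (Ta_24453_1_S1_s_at), which releases hydrogen peroxide, -1.23 ± 0.41 (0.222), and GH3.2 (Ta_4110_1_S1_at), which joins the hormone auxin to amino acids, -0.95 ± 0.25 (0.121). The peptide chain release factor ERF1 (Ta_5879_1_S1_at), which ends translation at stop codons, passed the adjusted p but not the fold (-0.87 ± 0.17, adjusted p = 0.039), and M was below WT without overlap under each treatment.

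Without the 2-fold threshold 145 probe sets (0.59%) had an adjusted p under 0.05, 46 higher and 99 lower in M, and 140 of them had the same sign under both treatments. The named ones among the 115 under 2-fold were chosen for their p after the values were seen. RAP2.12 (Ta_10130_1_S1_at), an ethylene response factor that takes part in oxygen sensing in Arabidopsis, had the smallest adjusted p of all probe sets. It read 12.16, 12.16 and 12.13 on the WT control arrays, 12.08, 11.85 and 11.85 on the M control arrays, 13.19, 13.09 and 13.34 on the WT stress arrays and 11.82, 11.96 and 11.67 on the M stress arrays. All 6 M arrays were below all 6 WT arrays, but only narrowly under control (-0.23 ± 0.10, against -1.39 ± 0.10 under water stress). The average was -0.81 ± 0.07 (adjusted p = 0.0012) with an adjusted p of 0.000939 to 0.00992 in the 12 fits without 1 array. The interaction passed with all 12 arrays (-1.16 ± 0.14, adjusted p = 0.0335). In several fits without 1 array, such as without WT control replicate 1, the interaction called no probe set, RAP2.12 included. The same was so with the replicate number as a block.

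A pair of enzymes of amino acid metabolism had similar differences under both treatments. LKR/SDH (Ta_4800_1_S1_at), the bifunctional enzyme that starts lysine degradation, read 9.27, 9.29 and 9.37 on the WT control arrays, 8.86, 8.47 and 8.79 on the M control arrays, 11.29, 10.77 and 10.997 on the WT stress arrays and 10.4, 10.25 and 10.12 on the M stress arrays. M was below WT under each treatment without overlap, with -0.60 under control and -0.76 under water stress, with an average of -0.68 ± 0.11 (adjusted p = 0.0179). PYD4 (Ta_4834_1_S1_at), named as an alanine-glyoxylate transaminase, read 10.6, 10.24 and 10.68 on the WT control arrays, 10.18, 9.72 and 9.75 on the M control arrays, 12.36, 12.4 and 12.37 on the WT stress arrays and 11.53, 11.83 and 11.45 on the M stress arrays. It had the same pattern, with -0.62 and -0.77 and an average of -0.70 ± 0.11 (adjusted p = 0.0175). In the fits without 1 array the adjusted p was 0.0127 to 0.0604 for LKR/SDH and 0.0179 to 0.058 for PYD4. Of the 19 probe sets of amino acid and proline metabolism listed, 17 were below 0 on average and 2 passed the adjusted p, with a median of -0.31. The family's median was -0.02 under control and -0.64 under water stress, and 13 of the 19 had the same sign under both.

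Aquaporins of the PIP family are the water channels of the plasma membrane. PIP2;2 (TaAffx_8804_1_S1_s_at) read 14.58, 14.42 and 14.39 on the WT control arrays, 14.41, 14.76 and 14.55 on the M control arrays, 11.12, 11.99 and 11.49 on the WT stress arrays and 12.85, 12.91 and 12.88 on the M stress arrays. The genotypes overlapped under control, and under water stress, where both read lower, every M array was above every WT array. The average of 0.73 ± 0.12 passed the adjusted p (0.0207; 0.0023 to 0.0756 in the fits without 1 array) and was made of 0.11 under control and 1.35 under water stress, so that the sign under control was within the spread between arrays. TaAffx_8804_3_S1_s_at, also of PIP2;2, and TaAffx_8804_2_S1_at of PIP2;5 averaged 0.82 ± 0.20 and 0.68 ± 0.19 and did not pass (adjusted p = 0.0983 and 0.146).

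The same held for the cellulose synthase-like gene CSLC12 (Ta_7192_1_S1_at), which takes part in making the backbone of xyloglucan, with -0.09 under control and -1.02 under water stress (average -0.56 ± 0.09, adjusted p = 0.0256). BZIP63, a transcription factor of the energy starvation response in Arabidopsis, had -0.04 and -1.04 on TaAffx_18447_5_S1_s_at (average -0.54 ± 0.10, adjusted p = 0.0315). On TaAffx_18447_1_S1_at it was the 1 named probe set called in the interaction with opposite signs, and it read 11.53, 11.62 and 11.8 on the WT control arrays, 11.9, 11.9 and 11.64 on the M control arrays, 10.91, 10.78 and 11.08 on the WT stress arrays and 9.74, 9.95 and 10.12 on the M stress arrays. M was slightly above WT under control (0.16 ± 0.13) with overlap and below WT under water stress (-0.99 ± 0.13) without overlap (interaction -1.15 ± 0.18, adjusted p = 0.0342), so its average of -0.41 describes neither treatment. As for RAP2.12, this interaction was lost in the fits in which no probe set was called.

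**Figure D5:**
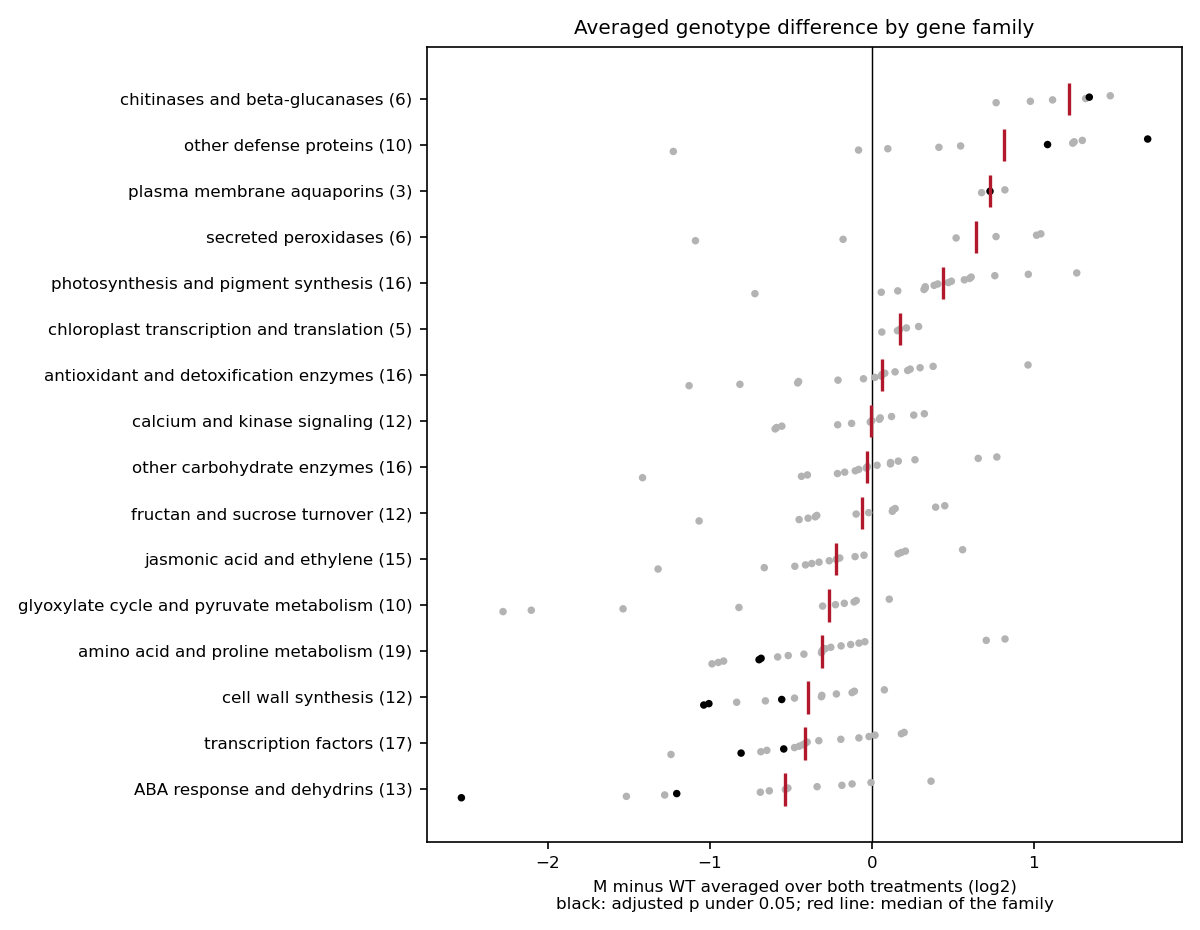
Averaged difference of M minus WT (log2, horizontal axis) for the probe sets of 16 gene families from the study's tables, with the number kept in brackets, black points for an adjusted p under 0.05 and a red line at the median. The medians run from -0.53 for the ABA response and dehydrins to 1.22 for chitinases and beta-glucanases, and the median over all probe sets was 0.00347.

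By family, few members passed. The study chose these genes on the same arrays, so that their directions are not independent of it, and the counts are of probe sets, several of which belong to 1 gene. Over all probe sets 0.122% were called, 0.0569% higher and 0.0651% lower. All 6 probe sets of chitinases and beta-glucanases were above 0 on average, with a median of 1.22 and 1 called, and 5 of them had the same sign under both treatments. Of 10 probe sets of other defense proteins 8 were above 0 with 2 called, GLP2b and Blufensin1, and of 6 of secreted peroxidases 4 were above 0 with none called. Of 13 probe sets of the ABA response and dehydrins, 12 were below 0 on average with a median of -0.53 and 2 called, LEA1 and ATHB-6. Of 12 probe sets of cell wall synthesis 11 were below 0 with 2 called, both of the xyloglucosyl transferase, and their median was -0.03 under control and -0.88 under water stress. For 17 probe sets of the transcription factors listed outside these families, which leaves out ATHB-6, the median was -0.41 with 14 below 0, and none was called. Their median was -0.02 under control and -0.82 under water stress, and 11 of the 17 had the same sign under both. Over all probe sets 50.9% were above 0 on average. After quantile normalization the medians of the chitinases and beta-glucanases, the ABA response, cell wall synthesis and these transcription factors kept their sign, and so they did without any single array.

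The genes of photosynthesis and pigment synthesis bear on the pale-green leaf most directly, and none of their 16 probe sets, 5 of them of LHB1B2, passed the averaged test. On average 15 were above 0 with a median of 0.44, but the median was 0.04 under control and 0.91 under water stress, where 11 of 16 separated the genotypes compared with 19% of all probe sets. The study selected these genes for a stress response in a single genotype on the same arrays. That choice favours separation under water stress, so that nothing is read from the 11 of 16. The light-harvesting gene LHB1B2 (Ta_23025_1_A1_at), which encodes a chlorophyll a/b binding protein of photosystem II, had 1.49 under control and 1.04 under water stress. It read 6.47, 6.39 and 6.05 on the WT control arrays, 7.91, 7.87 and 7.62 on the M control arrays, 6.68, 7.73 and 7.65 on the WT stress arrays and 9.81, 7.88 and 7.48 on the M stress arrays, with M above WT without overlap under control, overlap under water stress and an average of 1.27 ± 0.34 (adjusted p = 0.132). The other 4 LHB1B2 probe sets were between -0.20 and 0.19 under control and between 0.95 and 1.18 under water stress. HEMA1, which encodes glutamyl-tRNA reductase, an early enzyme of chlorophyll synthesis, averaged 0.41 ± 0.13 on Ta_3243_1_S1_x_at and 0.38 ± 0.15 on Ta_3243_1_S1_at (adjusted p = 0.211 and 0.336).

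The glyoxylate cycle turns products of fat breakdown into sugars, and isocitrate lyase (ICL) and malate synthase (MLS) are its own enzymes. ICL averaged -2.28 ± 0.79 on TaAffx_79139_1_S1_at and -2.10 ± 0.71 on Ta_23989_1_A1_at, and MLS averaged -1.54 ± 0.43 on Ta_23970_1_A1_x_at. The study lists a further ICL probe set, which is not given here. The differences given were as large as those of the called probe sets but did not pass (adjusted p = 0.247, 0.23 and 0.143), and the arrays of a group differed widely. On Ta_23989_1_A1_at the values were 5.4, 5.99 and 7.25 on the WT control arrays, 5.3, 4.49 and 1.29 on the M control arrays, 8.71, 7.32 and 10.2 on the WT stress arrays and 8.15, 7.35 and 5.67 on the M stress arrays.

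The labelled tissue was checked on mesophyll genes. The Rubisco small subunit lay between the 83.2 and 96.6 percentile of the array on all 12 arrays, and 4 of the 5 LHB1B2 probe sets between the 87.3 and 99.4 percentile, with the fifth, Ta_23025_1_A1_at, between 53.0 and 84.1. The Rubisco large subunit, whose gene is in the chloroplast, ranged from the 33 to the 77.5 percentile, with a median of 43.9 in M under water stress and 67.6 in WT under water stress. No probe sets for other leaf cell types were named in the sources used here.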

How the data were processed

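The deposited values are MAS5 signal intensities on a linear scale, 1 per probe set and array, which the authors computed with MAS5 (named in the submitters' processing notes, version not given in the sources used here) from 12 Affymetrix Wheat Genome Arrays, each scaled to a common trimmed mean of about 500.3. The study's own lists came from RMA values and MAS5 detection calls, which were not used here, so that low values can vary more here than in RMA. Groups came from the sample titles, and probe set names are printed with _ for the dots. Of 61290 probe sets, 111 controls were left out and values were taken as log2 with no offset. A probe set was kept (24590, 40.2% of those left) where all 3 replicates of some group exceeded the 60th percentile of their arrays. The 4 group means were fitted in limma (version 3.58.1, R 4.3.3) with an intensity trend, and calls required both a 2-fold difference and p under 0.05 after Benjamini-Hochberg adjustment. All adjusted p-values in the text come from this fit over all kept probe sets, errors beside a ± are standard errors of the fit, and p-values measure the spread between these replicates, which are pools of plants. Variance shares came from sums of squares.

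Named were called probe sets with a gene name and the same sign under both treatments (at most 20 in each direction), the 2 largest unnamed in each direction, all named probe sets of the study's control lists, at most 5 named ones called in the interaction with opposite signs, and families as counts and medians. The members and lists were chosen with earlier results of these data known. Names came from the study's tables and the platform annotation, and primer sequences from the study's primer table. The fit was tested on simulated data. The alternatives were quantile normalization, other filters, an offset of 32, no trend, an additive model, array weights, a replicate block, a Welch t-test, only the arrays compared, and leaving out arrays. The study's own lists gave names, the control lists with their directions and the genes of the families. Their fold change values were not used. Positions and sequences of the probe sets were not used here. The number of arrays limits the precision.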

Additional observations from a re-analysis of the deposited data

Results flagged for a closer look

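The difference between M and WT itself differed between the treatments, by the interaction of limma, for 39 probe sets, 9 with a higher and 30 with a lower mutant difference under water stress. In 33 of them the signs were opposite under control and water stress, and in 6 they were the same. Among the probe sets named in the report, RAP2.12 (Ta_10130_1_S1_at) had an interaction of -1.16 ± 0.14 (SE, adjusted p = 0.0335) and the same sign under both. The unnamed Ta_21659_1_A1_at had -1.95 ± 0.31 (adjusted p = 0.0342), again with 1 sign. The unnamed Ta_22572_1_S1_at of the study's control list, which read 11.47, 11.69 and 11.17 on the WT control arrays, 12.57, 12.79 and 13.19 on the M control arrays, 11.95, 11.12 and 11.23 on the WT stress arrays and 11.16, 11.31 and 11.14 on the M stress arrays, had -1.64 ± 0.30 (adjusted p = 0.0459), with M above WT under control and overlap under water stress. BZIP63 (TaAffx_18447_1_S1_at) had -1.15 ± 0.18 (adjusted p = 0.0342), with opposite signs. In several fits without 1 array, and with the replicate number as a block, the interaction called no probe set, these included. Groups of 3 arrays are too small for a search for single outlying values, and none was made.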

How the results depend on the processing

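The average over both treatments called 30 probe sets, and 24 after quantile normalization, 20 without a filter, 22 among the 40% with the highest mean, 20 with an offset of 32 and 20 without _x_at and _s_at probe sets, all with the same sign under both treatments. It called 12 without the intensity trend and 5 with an additive model. A Welch t-test of all M against all WT arrays, with both treatments pooled and no treatment term, called 0. Differences between the treatments enter its error, so that this 0 cannot be set against the other counts. The average called 159 at unadjusted p-values (145 with the same sign) and 145 without the fold threshold (140 with the same sign). With array weights it called 105 (95 with the same sign, and 25 of the 30 among the 105). Fitted alone, the control arrays gave 53 and the stress arrays 5. A Welch t-test within each treatment, the kind of test the study used but here on MAS5 values, gave 0 in each.

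Leaving out 1 array at a time gave 2 to 46 for the average, 2 to 43 with the same sign, 0 to 11 under control, 75 to 291 under water stress, 0 to 141 for the interaction and 0 to 1 switched on or off. Leaving out both M water stress replicate 3 and WT water stress replicate 2, chosen after seeing the data, gave 76 for the average, 71 with the same sign, 23 under control, 482 under water stress and 361 for the interaction.

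The replicate numbers were not treated as pairs. The labels tie no number to a plot of the split-plot layout, in which genotypes of 1 main plot would be paired. Deviations of same-numbered arrays from their group means correlated between -0.186 and 0.0889, and those of different-numbered arrays between -0.145 and 0.161. The deviations of 3 arrays from their own mean constrain each other, so that these correlations cannot decide whether arrays were paired. With the replicate number as a block the average called 11 (4 higher and 7 lower, all among the 30 and with the same sign), control 0, water stress 139 and the interaction 0. Of 360 results of the 30 probe sets with 1 array left out, 226 were no longer called. Without _x_at and _s_at probe sets 23 of the 30 could be tested, which leaves out LEA1, GLP2b and the endonuclease, and among the 40% with the highest mean 22 could.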
